A study of Mus musculus with 2 samples.

Results

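Neurog1, Neurog2, Neurod1, Neurod2, Neurod6, Insm1 and Btg2 are a set of 7 genes that mark successive steps of neuron formation in the embryonic cortex. They were taken by symbol from the 32285 genes of the matrices, and all 7 were present. Their unique molecular identifiers (UMIs, each standing for a captured mRNA molecule) were followed from radial glia through Eomes-expressing progenitors and young neurons to layered neurons, and in progenitors of the ganglionic eminence. The cells came from the dorsal telencephalon of embryonic mice, collected at day 16.5 and dissociated with papain for single-cell RNA sequencing. The series was designed to compare controls with embryos in which Emx1-Cre removes Dot1l, a histone methyltransferase, from dorsal cells, the domain where Emx1 is active. The libraries used here were 2 controls, both labelled WT and called here WT replicate 1 and 6 after their titles; the knockout was not analysed here. No other allele, treatment or agent is given in their labels, and the labels do not say whether each library was made from 1 embryo or from several.

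Proneural genes of the Neurog family encode basic helix-loop-helix (bHLH) transcription factors that pair with E proteins, bind the E-box and start neuronal differentiation. In the developing cortex, radial glia are the stem cells, and many of their daughters become intermediate progenitors that carry the transcription factor Eomes (Tbr2) and divide to give excitatory neurons. Neurod1 acts after the Neurog genes, whereas Neurod2 and Neurod6 are factors of differentiated excitatory neurons. Insm1 is a zinc-finger factor of delaminating and basal progenitors, and Btg2 (Tis21) is an antiproliferative gene that labels progenitors about to make neurons. The ganglionic eminences make GABAergic neurons.

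The E-box, CANNTG, is the sequence that bHLH pairs bind, and the stretches upstream of the 3 Neurod genes are shown because Neurod2 and Neurod6 moved together across the classes while Neurod1 did not. Each is the 250 bases before the RefSeq start site in build GRCm38.p6, read 5′ to 3′ on the gene's own strand, with every E-box in capitals.
Neurod1, chr2:79456637-79456886, minus strand: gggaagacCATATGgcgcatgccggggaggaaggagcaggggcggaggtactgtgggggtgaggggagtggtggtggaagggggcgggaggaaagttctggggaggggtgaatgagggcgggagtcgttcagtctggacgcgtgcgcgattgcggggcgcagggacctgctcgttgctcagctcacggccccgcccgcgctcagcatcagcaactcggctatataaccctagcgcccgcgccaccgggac
Neurod2, chr11:98329646-98329895, minus strand: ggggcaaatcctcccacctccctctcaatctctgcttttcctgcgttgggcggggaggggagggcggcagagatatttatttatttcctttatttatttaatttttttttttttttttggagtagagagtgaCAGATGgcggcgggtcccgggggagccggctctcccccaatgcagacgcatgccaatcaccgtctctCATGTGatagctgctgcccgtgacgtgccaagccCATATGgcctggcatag
Neurod6, chr6:55681264-55681513, minus strand: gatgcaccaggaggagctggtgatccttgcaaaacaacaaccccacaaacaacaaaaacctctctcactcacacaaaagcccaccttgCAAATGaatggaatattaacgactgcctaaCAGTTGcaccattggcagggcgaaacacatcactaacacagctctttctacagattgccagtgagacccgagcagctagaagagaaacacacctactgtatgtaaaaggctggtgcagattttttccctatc
Neurod1 held 1 E-box, CATATG, whose first base lay at position -242 from the start site. Neurod2 held 3, at -118 (CAGATG), -51 (CATGTG) and -17 (CATATG), and Neurod6 held 2, at -162 (CAAATG) and -132 (CAGTTG). The same window of Neurog1, Neurog2 and Btg2 held none, and Insm1 had no entry in the promoter table. The Neurog2 window, chr3:127632886-127633135, lies inside the gene span given below, so its start site is not the first base of that span. The pattern CANNTG reads as CANNTG on the opposite strand, so a single search covered both strands. At least 1 match stood in 66.2% of the 32851 windows of this length, at least 2 in 31.8% and at least 3 in 12.2%, and CATATG stood in 3.46%. A match is a description of the letters and not a measured binding site, and the part of these E-boxes in the levels was not tested.

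The genes lie on 6 chromosomes of GRCm38.p6, the mm10 build named in the submitters' processing notes. Neurog1 spans chr13:56250478-56252180, Neurog2 chr3:127632733-127635636 and Neurod1 chr2:79452637-79456636. Neurod2 spans chr11:98325415-98329645 and Neurod6 chr6:55677818-55681263. Insm1 spans chr2:146221997-146225020 and Btg2 chr1:134074865-134079155. The identifiers in the matrices are ENSMUSG00000048904 (Neurog1), ENSMUSG00000027967 (Neurog2), ENSMUSG00000034701 (Neurod1), ENSMUSG00000038255 (Neurod2), ENSMUSG00000037984 (Neurod6), ENSMUSG00000068154 (Insm1) and ENSMUSG00000020423 (Btg2).

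The libraries held 14136 and 13046 called cells with 74930397 and 68964234 UMIs, of which 8139 and 8209 passed the limits of 1500 to 60000 UMIs and less than 10% from mitochondrial genes. Among the kept cells, 26 barcodes occurred in both libraries. Classes were gated on UMIs of marker genes, none of them a member, and 7617 of the 16348 kept cells met no gate or several. Genes held back from the gate of their own class checked it, ranked over the 10 lineage and eminence classes. All 4 such genes of radial glia were highest in their own class, as were 3 of 3 for the layer 6 gate and 2 of 3 for Eomes progenitors. All 4 of eminence progenitors were highest there too, but 3 of them (Dlx5, Dlx6 and Gad2) were capped in the cortical gates. GABAergic neurons were not ranked, so the eminence check was largely fixed by the gates. Only 1 of 3 was highest in the upper-layer gate, 1 of 2 in the layer 5 gate and 0 of 4 in the newborn-neuron gate, where Slc17a6 and Dcx were higher in cells that still had Eomes. These names are therefore not used as cell types: the classes are called upper-gate neurons, after the gate alone, Fezf2+ Hs3st4- neurons and Unc5d-high neurons (high in Unc5d and Sema3c, without Eomes). Layer 6 gated cells are called Hs3st4+ neurons, and cells with both Eomes and high Unc5d are called Eomes+ Unc5d-high cells. The lineage and eminence classes held 156 to 1568 cells with median depths of 7114 to 12239 UMIs. Gates for radial glia, Eomes progenitors, deep-layer neurons and eminence progenitors also capped the UMIs of Unc5d and Sema3c or of upper-layer markers, which removes cells holding much RNA of other neurons.

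Levels are given as CPM, the UMIs summed per library and class and scaled to a total of 1000000, as the mean ± SD of 2 libraries. Levels in microglia, endothelial and erythroid cells, which should lack the bHLH genes, are given as background. Free RNA and doublets, which were kept, can both put UMIs of these genes there and were not told apart, and erythroid cells had the lowest depth of these 3 classes. Tests were edgeR quasi-likelihood tests on the sums, with Benjamini-Hochberg adjusted p-values over all genes tested. With 2 libraries they measure only the spread between these libraries. A gene was compared only with itself between classes, and fewer copies per cell cannot be told apart from fewer cells with the gene in such sums.

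Neurog2, the main proneural gene of the cortex, was high in Eomes progenitors and low before and after them. The radial glia gate required 0 UMIs of Eomes and the Eomes progenitor gate at least 2. Radial glia that had begun to carry Eomes were thus not counted as radial glia, and Neurog2 in them was not measured apart. In non-cycling radial glia it stood at 52.3 CPM in WT replicate 1 and 29.4 in WT replicate 6, and in cycling radial glia at 22.1 and 36.3. The values in both overlapped those of erythroid cells, at 31.0 and 10.1 CPM, but in each library were above those of microglia, at 12.2 and 8.95 CPM, and of endothelial cells, at 6.82 and 21.1 CPM. In cycling Eomes progenitors it reached 560 and 445 CPM, and in non-cycling Eomes progenitors 694 and 784, the highest of the 15 classes. It stood at 190 and 219 CPM in Eomes+ Unc5d-high cells and at 16.0 and 19.0 in Unc5d-high neurons, within the erythroid range. In all 3 layered classes the mean was between 4.42 and 10.6 CPM, against 20.5 CPM in erythroid cells, 14.0 ± 10.1 CPM in endothelial cells and 10.6 ± 2.29 CPM in microglia.

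Neurog1, the closest relative of Neurog2, was rare. All kept cells together held 26 UMIs of it in WT replicate 1 and 47 in WT replicate 6, of which 12 and 39 lay in Eomes progenitors. The levels in cycling Eomes progenitors were 4.18 and 20.1 CPM, from 4 and 21 UMIs, and those in non-cycling Eomes progenitors were 5.78 and 9.44 CPM, from 7 and 12 UMIs. The libraries thus overlapped between these classes. Radial glia held 1 UMI of it in all, and the 1530 Unc5d-high neurons held 0, which allows up to 0.266 CPM. Erythroid cells of WT replicate 1 held 5 UMIs and those of WT replicate 6 held 0.

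Neurod1 was highest one step later than Neurog2. Its level was 47.1 and 75.7 CPM in cycling and 113 and 81.8 CPM in non-cycling Eomes progenitors. It was 311 and 249 CPM in Eomes+ Unc5d-high cells, above every other class in both libraries. It then stood at 143 and 128 CPM in Unc5d-high neurons and at 36.7 and 27.1 CPM in upper-gate neurons. The Fezf2+ Hs3st4- neurons departed from this decline with 151 and 100 CPM, a range that overlapped Unc5d-high neurons and non-cycling Eomes progenitors. Radial glia, at 13.9 ± 3.92 CPM when non-cycling and 7.62 ± 3.24 CPM when cycling, overlapped endothelial cells (14.4 and 5.92 CPM) and erythroid cells (13.5 and 7.10 CPM) and were above microglia (4.87 and 4.47 CPM) in each library.

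Neurod2 and Neurod6 came up together and stayed. Neurod2 was 86.2 ± 25.8 CPM in cycling and 130 ± 6.40 CPM in non-cycling Eomes progenitors, 254 ± 12.1 CPM in Eomes+ Unc5d-high cells and 496 ± 9.0 CPM in Unc5d-high neurons. It was 475 ± 11.6 CPM in upper-gate neurons, whose library values of 467 and 484 lay just below the 502 and 490 of Unc5d-high neurons. Fezf2+ Hs3st4- and Hs3st4+ neurons, at 313 ± 22.3 and 318 ± 17.0 CPM, overlapped each other. Neurod6 was 608 ± 3.77 CPM in Eomes+ Unc5d-high cells and 696 ± 38.7 CPM in Unc5d-high neurons, and it was highest in upper-gate neurons with 944 and 836 CPM. Its ranges in Hs3st4+ neurons, Unc5d-high neurons and Fezf2+ Hs3st4- neurons overlapped. Both genes were also counted in classes of other lineages. Neurod6 was 113 and 136 CPM in non-cycling radial glia, against 122 and 140 CPM in erythroid cells, 92.5 and 52.4 CPM in endothelial cells and 60.9 and 73.1 CPM in microglia. Neurod2 was 53.9 and 49.9 CPM in non-cycling radial glia, against 58.8 and 73.3 CPM, 48.5 and 27.9 CPM and 46.3 and 31.3 CPM in the same 3 classes. Non-cycling radial glia were thus below erythroid cells and above endothelial cells and microglia in each library, whereas cycling radial glia, with 15.7 ± 4.94 CPM of Neurod2 and 30.8 ± 5.93 CPM of Neurod6, were below all 3.

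Insm1 was high in Eomes progenitors and again in Unc5d-high neurons. It was highest in cycling Eomes progenitors with 293 and 267 CPM, followed by non-cycling Eomes progenitors with 182 and 169 CPM. It was lower in Eomes+ Unc5d-high cells, with 86.6 and 101 CPM, and higher again in Unc5d-high neurons, with 124 and 137 CPM. The library values of these 4 classes did not overlap, and the difference between the last 2 was not tested. Upper-gate neurons held 55.1 ± 4.58 CPM, Fezf2+ Hs3st4- neurons 73.7 ± 8.79 CPM and Hs3st4+ neurons 15.2 ± 6.83 CPM, against 29.8 ± 2.83 CPM in erythroid cells, 6.09 and 23.9 CPM in microglia and 11.9 ± 3.61 CPM in endothelial cells.

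Within the lineage, Btg2 was high in progenitors and low in neurons. It was 93.6 and 71.7 CPM in non-cycling radial glia, 70.0 and 58.2 CPM in cycling radial glia, 163 and 172 CPM in cycling and 199 and 213 CPM in non-cycling Eomes progenitors. It stood at 71.1 ± 13.6 CPM in Eomes+ Unc5d-high cells and at 15.5 ± 2.16 CPM in Unc5d-high neurons. In the 3 layered classes the mean was 6.81 to 13.4 CPM. Btg2 is also an immediate early gene. The 9 immediate early and stress genes (Fos, Fosb, Jun, Junb, Egr1, Ier2, Atf3, Hspa1a and Hspa1b) summed to 393 and 344 CPM in radial glia and to 133 and 93.0 CPM in Eomes progenitors, while Btg2 was higher in Eomes progenitors. Their part in the Btg2 levels was not tested. Microglia, with 2360 and 2161 CPM of these genes in WT replicate 1 and 6, held 43.8 and 53.7 CPM of Btg2. Endothelial cells held 56.8 and 67.6 CPM of Btg2, which overlapped cycling radial glia, and erythroid cells 13.5 and 14.8 CPM.

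**Figure D1:**
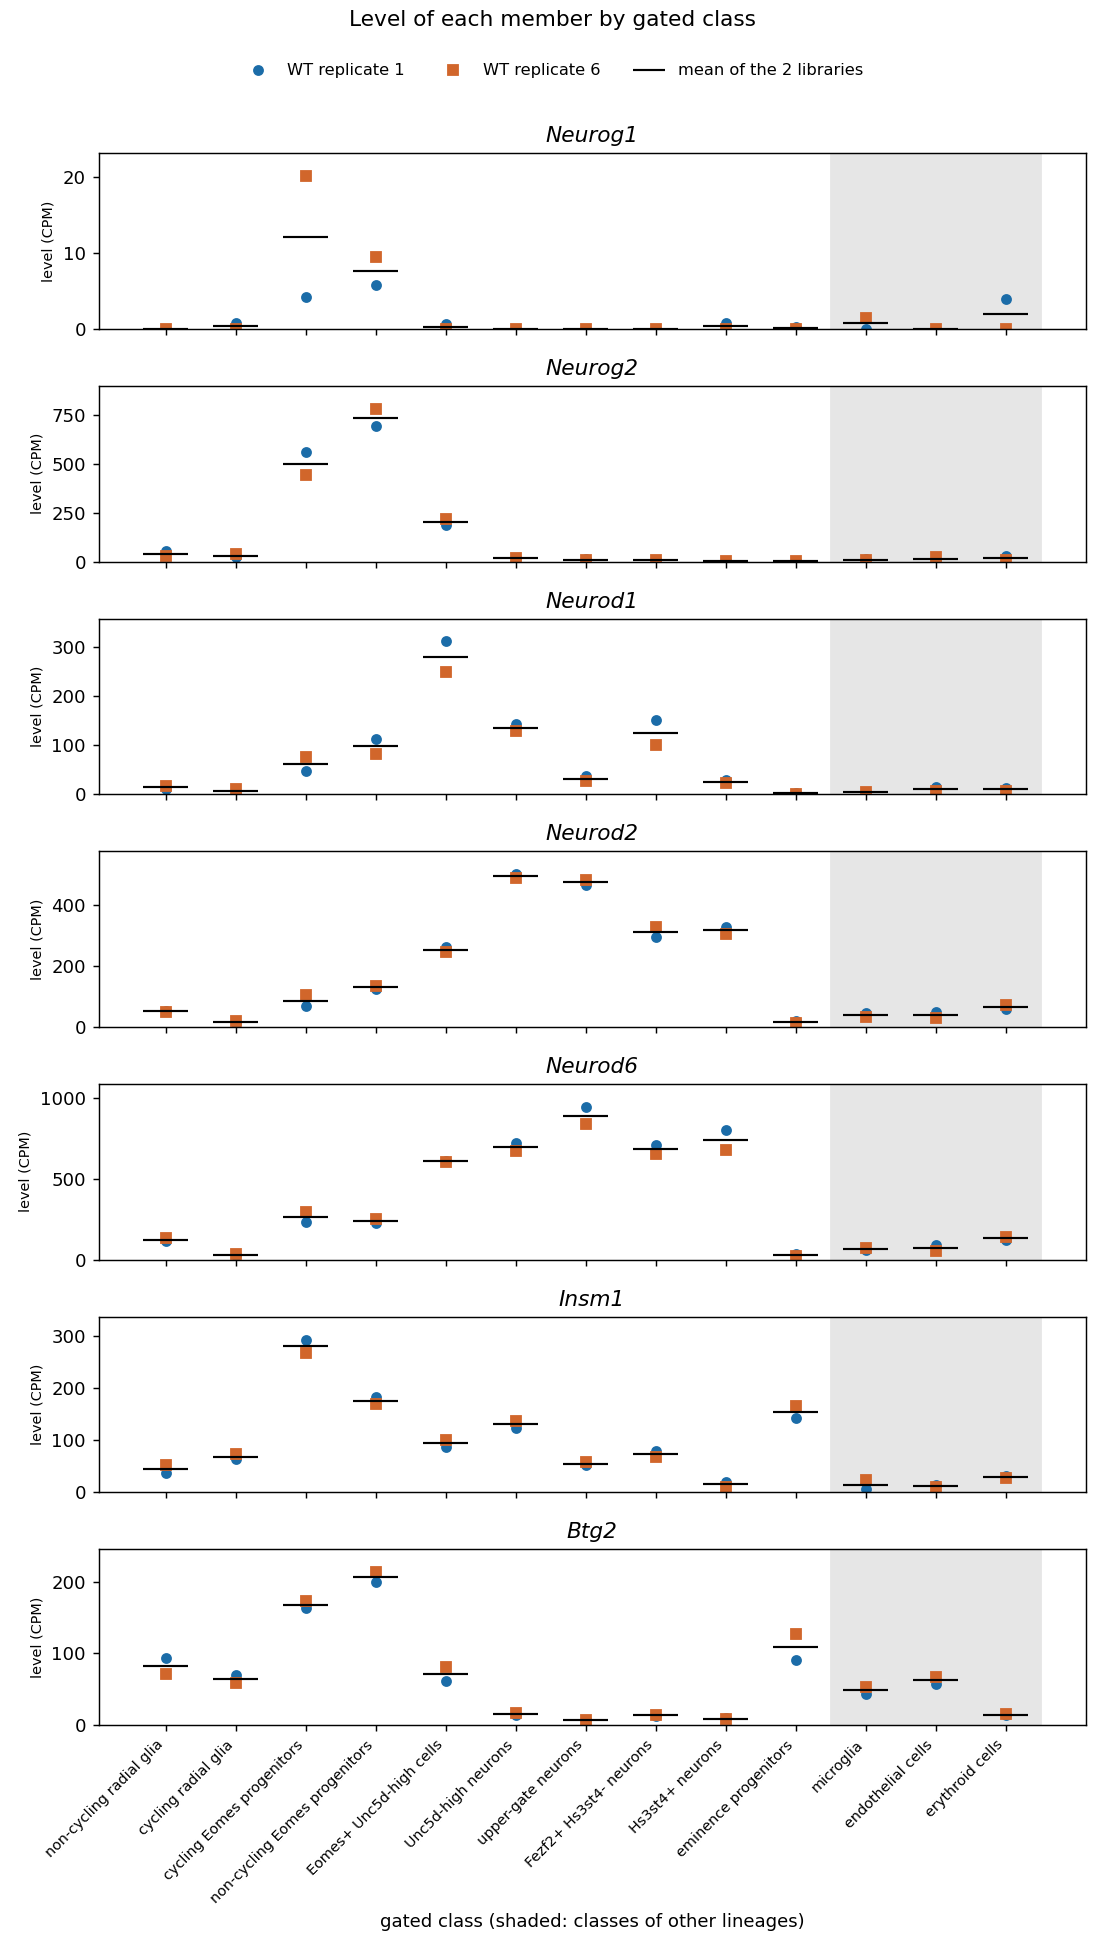
Level of each gene in CPM (vertical axes, each from 0) in 10 classes of the excitatory lineage and eminence and in 3 classes of other lineages (shaded). Points are the 2 WT libraries and bars their mean. Neurog2 peaks in Eomes progenitors, Neurod1 in Eomes+ Unc5d-high cells (mean 280 CPM), Neurod2 in Unc5d-high neurons and Neurod6 in upper-gate neurons, while Insm1 and Btg2 are also present in eminence progenitors.

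Mean detection in single cells was highest in the same class as the level for 6 of the 7 genes, the exception being Neurog1. Each cell was thinned to 2000 UMIs to remove differences in depth, and the few shallower cells were left out. For Neurog2, cycling Eomes progenitors (73.3% and 44.8%) overlapped non-cycling ones (62.6% and 68.3%). For Btg2 they did so too (34.7% and 28.7% against 32.8% and 32.4%). Without thinning, the highest class was cycling Eomes progenitors for Neurog2 (91.1%) and Btg2 (74.8%) and upper-gate neurons for Neurod2 (94.3%). A UMI of Neurog2 was found in 65.4% ± 4.02 of non-cycling Eomes progenitors (81.4% without thinning), against 4.36% ± 2.06 of non-cycling radial glia, 3.07% ± 0.364 of Unc5d-high neurons and 0.984% ± 0.188 of erythroid cells. Neurog1 was found in 3.25% ± 0.279 of non-cycling Eomes progenitors (5.71% without thinning). Neurod1 was found in 39.6% ± 10.3 of Eomes+ Unc5d-high cells (73.6% without thinning) against 20.7% ± 0.623 of Unc5d-high neurons.

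Neurod2 was found in 62.6% ± 1.17 of Unc5d-high neurons (91.3% without thinning) and in 8.80% ± 1.39 of erythroid cells. Neurod6 was found in 75.4% ± 1.93 of upper-gate neurons (95.1% without thinning), in 34.1% ± 2.49 of Eomes progenitors and in 12.7% ± 1.75 of erythroid cells. Insm1 was found in 42.1% ± 2.67 of cycling Eomes progenitors (89.1% without thinning), 24.1% ± 1.99 of eminence progenitors and 3.31% ± 0.733 of erythroid cells. Btg2 was found in 32.6% ± 0.290 of non-cycling Eomes progenitors (68.6% without thinning) against 11.9% ± 0.788 of radial glia, 13.2% ± 1.33 of endothelial cells, 7.44% ± 0.701 of microglia and 0.492% ± 0.0941 of erythroid cells. Median depths of erythroid, microglial and endothelial cells were 3963 to 4378, 9491 to 9537 and 12039 to 12504 UMIs before thinning. Neurog2 was found in 5 of 202 radial glia (2.48%) in WT replicate 1 and in 16 of 240 (6.67%) in WT replicate 6. It was found in 0 of 72 and 0 of 63 microglia, which allows up to 4.17% and 4.76%, so a difference was not detectable at this depth in WT replicate 1. Without thinning, Neurog2 was found in 11.3% and 14.6% of radial glia and in 6.67% and 4.55% of microglia at similar depth.

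**Figure D2:**
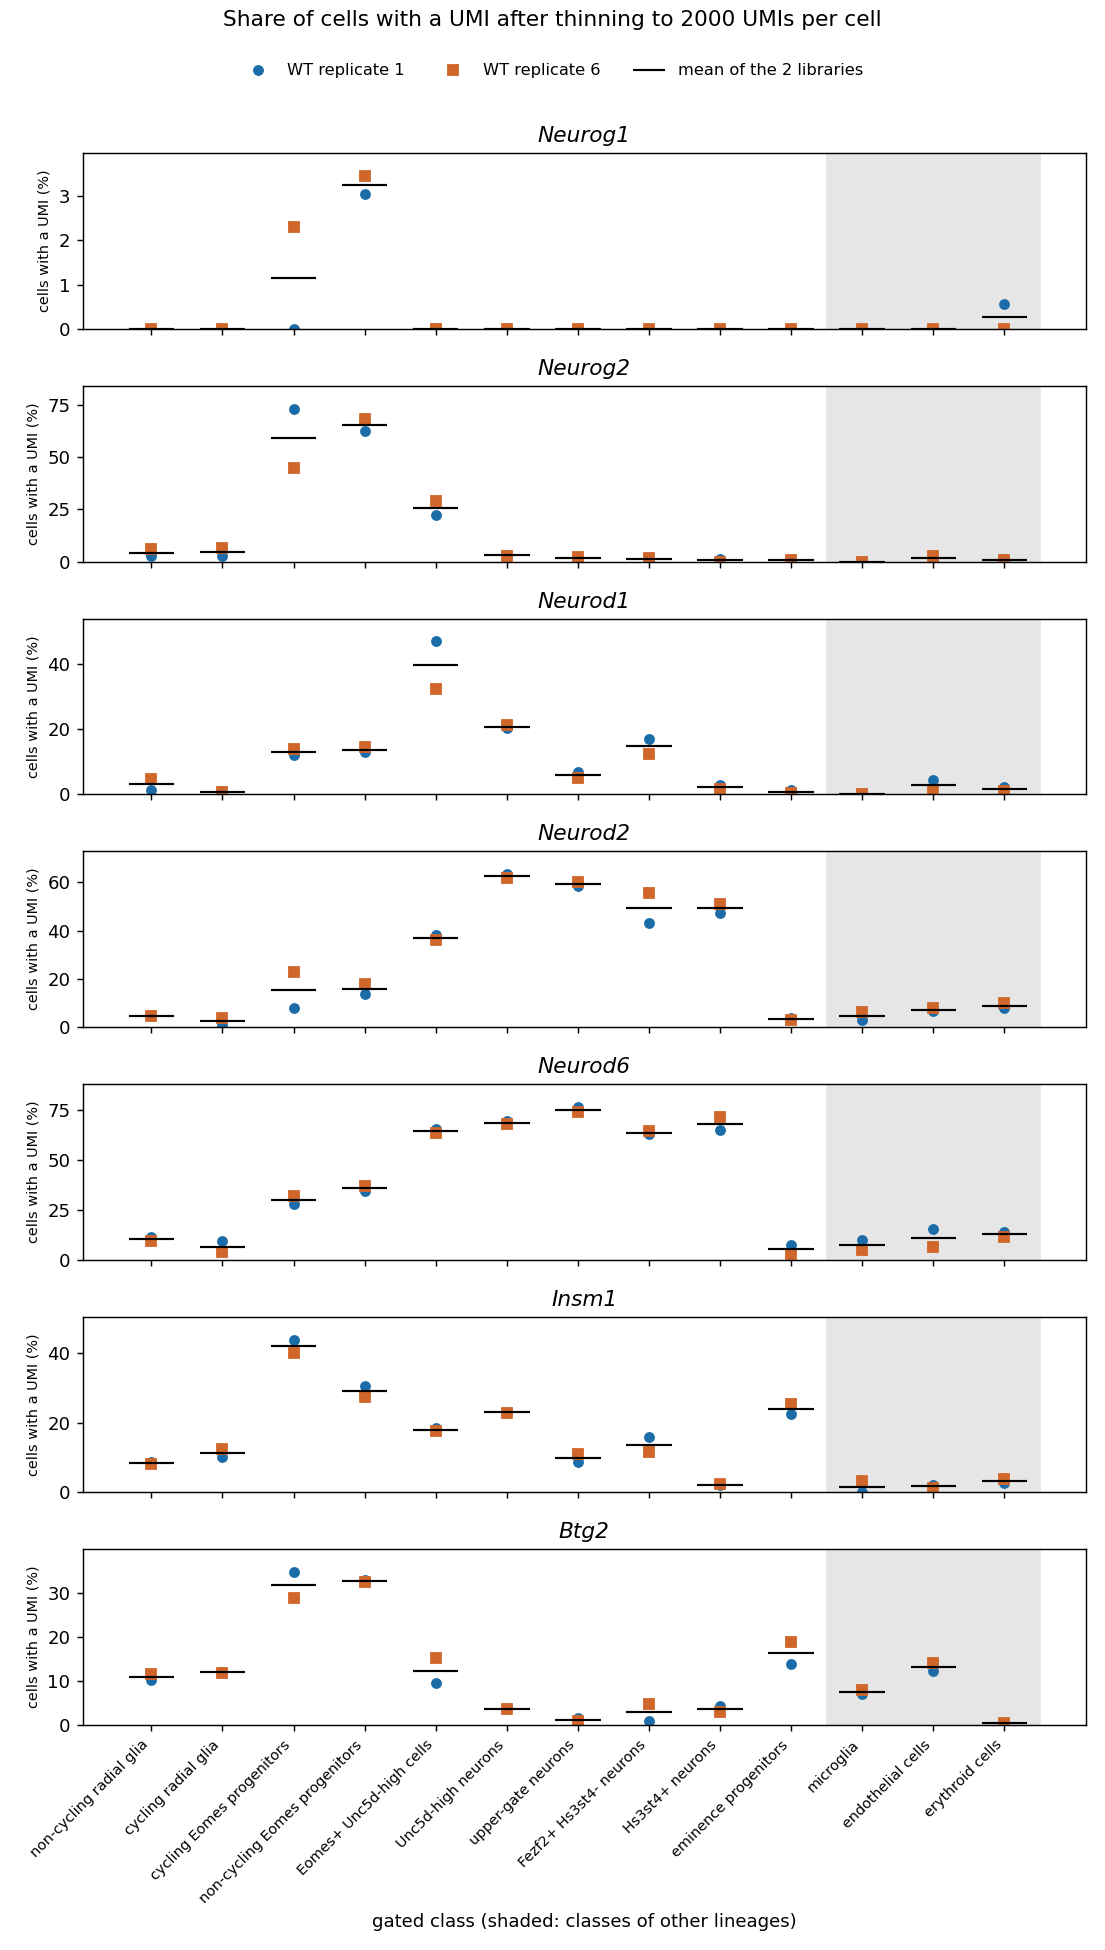
Percentage of cells with at least 1 UMI of each gene after thinning every cell to 2000 UMIs (vertical axes from 0), by gated class. Points are the 2 WT libraries, bars their mean and the shaded classes belong to other lineages. Neurod6 reaches 75.4% in upper-gate neurons, and Neurog1 stays under 5% in every class.

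Within Eomes progenitors, cells were split by whether a Neurog2 UMI was found after thinning. In WT replicate 1, 152 cells had one and 74 did not, and in WT replicate 6 the numbers were 150 and 104. Insm1 was found in 40.1% and 35.3% of cells with Neurog2 and in 25.7% (WT replicate 1) and 26 of 104 (WT replicate 6) of cells without. Btg2 followed, with 38.8% and 37.3% against 23.0% and 23.1%. The Neurod genes ran the other way in both libraries.

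Neurod1 was found in 10.5% and 10.7% of cells with Neurog2 and in 17.6% and 21.2% of cells without. For Neurod2 the shares were 6.58% with Neurog2 against 25.7% without in WT replicate 1, and 24 of 150 cells against 26 of 104 in WT replicate 6. For Neurod6 they were 29.6% against 37.8%, and 48 of 150 cells against 41.3%. Split by Neurod1 instead, Btg2 was found in 24.1% and 10.5% of the 29 and 38 cells with Neurod1 and in 35.0% and 35.2% of cells without, and Neurod6 in 44.8% and 55.3% with against 30.5% and 32.4% without. Cells of a library are not replicates, so these shares are descriptions without a test.

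**Figure D3:**
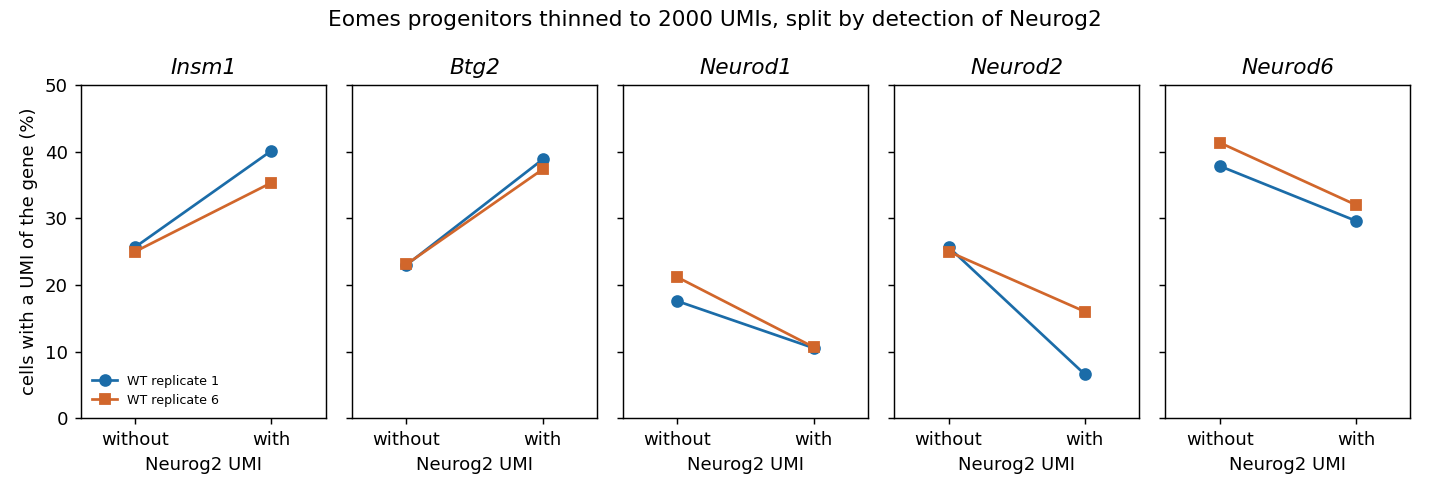
Percentage of Eomes progenitors, thinned to 2000 UMIs, with a UMI of Insm1, Btg2, Neurod1, Neurod2 or Neurod6 (vertical axis), among cells without and with a Neurog2 UMI. Each line is a WT library. Insm1 and Btg2 lines go up and the 3 Neurod lines go down in both libraries.

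The first comparison asked what differs between radial glia, gated to hold no Eomes UMI, and Eomes progenitors. All genes other than Neurog1 were called higher in Eomes progenitors, and Neurog1 is given apart below. Of the 11860 genes tested, 27.9% were called, 12.7% higher and 15.1% lower. Neurog2 was 639 ± 7.62 CPM against 32.4 ± 4.44 CPM in radial glia, a log2 difference of 4.34 ± 0.14 (SE, adjusted p = 4.1e-07). Neurod1 was higher by 3.16 ± 0.20 (adjusted p = 7.1e-06), Neurod6 by 2.08 ± 0.11 (adjusted p = 3.7e-06) and Neurod2 by 2.0 ± 0.14 (adjusted p = 9.5e-06) on the log2 scale. Insm1 was higher by 1.85 ± 0.13 (adjusted p = 1.0e-05) and Btg2 by 1.4 ± 0.12 (adjusted p = 3.2e-05). Neurog1 passed as well (adjusted p = 0.0037), with 51 UMIs against 1 and a ratio of 47.7 (95% exact interval 8.18 to 1920, counting error only). It passed the filter on low counts through the progenitors alone, so its call adds nothing to the count of higher genes. In radial glia, Neurod2 and Neurod6 were below erythroid cells in each library, while Neurod1, at 7.33 and 11.9 CPM, was below them in WT replicate 1 and above them in WT replicate 6. The part of such background in the sizes of these differences was not tested.

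The genes around the proneural factors were also compared. All 9 targets of proneural factors tested were called higher in Eomes progenitors, with a median log2 difference of 3.26 against 0.01 over all genes. Elavl4, a neuronal RNA-binding protein, was higher by 3.26 ± 0.12 (adjusted p = 7.3e-07), Gadd45g, a growth-arrest gene, by 2.86 ± 0.13 (adjusted p = 1.8e-06) and Mfng, which glycosylates Notch, by 3.86 ± 0.19 (adjusted p = 2.3e-06). Rnd2, a small GTPase of migrating neurons, was higher by 3.81 ± 0.19 (adjusted p = 2.4e-06). Of the 11 bHLH partners and opponents, 5 were called higher and 6 lower. The lower ones included Id4, Id3 and Id1, which sequester E proteins, with log2 differences of -2.57, -4.72 and -2.93, and the Notch effector Hes5, with -3.57 ± 0.17 (adjusted p = 2.3e-06). Id2, the remaining Id gene of the list, was called higher, by 0.81 ± 0.13 (adjusted p = 0.0017).

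Among other bHLH genes, 3 of the 6 tested were called higher and 0 lower. They were Neurod4, Nhlh1 and Nhlh2, with log2 differences of 5.32 ± 0.57, 5.49 ± 0.69 and 2.07 ± 0.51. All 3 were too low to be tested between eminence progenitors and cycling radial glia, so cycling radial glia held few UMIs of them. Of the 5 partners and relatives of Insm1 tested, Kdm1a (1.28 ± 0.12), Rcor2 (2.76 ± 0.26) and Hdac2 (0.56 ± 0.11) were called higher. These encode parts of a corepressor complex that Insm1 recruits. Of the 6 tested relatives of Btg2 and Cdk inhibitors, Cdkn1c alone was called, higher by 2.29 ± 0.19 (adjusted p = 2.8e-05).

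The second comparison followed the exit from the progenitor state. In Unc5d-high neurons Neurod1, Neurod2 and Neurod6 were called higher than in Eomes progenitors, and Neurog2, Btg2 and Insm1 lower. Neurog1 is given apart below. Of 12507 genes, 45.6% were called, 21.9% higher and 23.7% lower. Neurod2 was higher by 2.20 ± 0.10 (adjusted p = 1.1e-06), Neurod6 by 1.48 ± 0.10 (adjusted p = 8.3e-06) and Neurod1 by 0.78 ± 0.10 (adjusted p = 0.00031) on the log2 scale. Neurog2 fell by 5.08 ± 0.12 (adjusted p = 1.6e-07), Btg2 fell by 3.51 ± 0.11 (adjusted p = 3.2e-07) and Insm1 fell by 0.62 ± 0.09 (adjusted p = 0.00085). Neurog1, with 0 UMIs against 51, was at least 38.8-fold lower, taking 3 UMIs over both libraries as the floor. It entered the test through the progenitors alone, so its call is not set beside those of the lower genes named above.

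Of the 9 proneural targets, 7 were called lower and 1 higher. Gadd45g fell by 4.60 ± 0.12 (adjusted p = 1.6e-07) and Mfng fell by 1.94 ± 0.13, while Cdk5r1, the neuronal activator of Cdk5, was higher by 1.53 ± 0.10 (adjusted p = 8.3e-06). Hes6, which counters Hes1, fell by 1.63 ± 0.08 (adjusted p = 2.0e-06). Among other bHLH genes, Bhlhe22 was higher by 2.17 ± 0.14 (adjusted p = 6.3e-06), and the difference of Neurod4 was -6.42 ± 0.55. Neurod4 was too low to be tested between layered and Unc5d-high neurons, so its call here rests on the progenitors. Btg3, a relative of Btg2, fell by 1.65 ± 0.16 (adjusted p = 6.8e-05).

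The third comparison set the sum of the 3 layered classes against Unc5d-high neurons. Upper-gate neurons made up 1568 of the 2044 cells in this sum, so its calls mostly describe them. Of 6 genes tested, 1 was called higher and 4 lower. Of 13545 genes, 31% were called, 16.8% higher and 14.2% lower. Neurod1 fell by 1.63 ± 0.14 (adjusted p = 1.6e-05), Insm1 by 1.29 ± 0.08 (adjusted p = 1.4e-06), Btg2 by 0.94 ± 0.18 (adjusted p = 0.0028) and Neurog2 by 0.86 ± 0.19 (adjusted p = 0.0061) on the log2 scale. Layered neurons held 10.9 and 8.11 CPM of Neurog2 and 7.89 ± 0.579 CPM of Btg2, and without WT replicate 6 the Neurog2 difference was -0.56. Unc5d-high neurons overlapped erythroid cells in Neurog2 (16.0 and 19.0 against 31.0 and 10.1 CPM) and in Btg2 (14.0 and 17.0 against 13.5 and 14.8 CPM). Layered neurons were below erythroid cells in each library for both genes. The part of background in both differences was not tested. Neurod6 was higher by 0.31 ± 0.08 (adjusted p = 0.014), a call that was lost when all classes entered a single fit (adjusted p = 0.30). The deep-layer gates did not share all of these differences. Neurod1 in Fezf2+ Hs3st4- neurons, at 151 and 100 CPM, overlapped Unc5d-high neurons, at 143 and 128 CPM. The Neurod6 ranges of both deep-layer gates also overlapped that of Unc5d-high neurons. Neurod2 differed by -0.16 ± 0.07 and was not called (adjusted p = 0.12), but a fit with a replicate block for the library called it lower (adjusted p = 0.0017). Of the 9 proneural targets, Rnd2 fell by 3.18 ± 0.09 (adjusted p = 1.7e-08) and Mfng fell by 3.37 ± 0.21 (adjusted p = 1.6e-06) among 5 called lower and 1 higher. The differences of the E protein genes Tcf12, Tcf4 and Tcf3 were -1.07 ± 0.07, -0.42 ± 0.06 and -0.61 ± 0.09, all called. Of the 5 corepressor genes of the Insm1 list, 4 were called lower, led by Rcor2, which fell by 0.84 ± 0.11 (adjusted p = 0.00022).

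The deep-layer gates differed in 2 of the 5 genes tested, both higher in Fezf2+ Hs3st4- neurons, where 10.1% of 9773 genes were called, 3.88% higher and 6.23% lower. Neurod1 was 151 and 100 CPM there against 28.5 and 23.3 CPM in Hs3st4+ neurons, a log2 difference of 2.23 ± 0.24 (adjusted p = 0.00027). Insm1 was 79.9 and 67.5 CPM against 20.02 and 10.4 CPM, a log2 difference of 2.21 ± 0.27 (adjusted p = 0.00058). The groups did not overlap for either gene. Neurod2 differed by -0.06 ± 0.13 (adjusted p = 0.82), Neurod6 by -0.16 ± 0.13 (adjusted p = 0.51) and Btg2 by 0.54 ± 0.37 (adjusted p = 0.43), and Neurog2, with 19 and 11 UMIs, was not tested.

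Markers used in or held back from the gates were compared between the same classes, as values without a test. Sema3c was 284 and 245 CPM in Fezf2+ Hs3st4- neurons and 33.9 and 38.8 CPM in Hs3st4+ neurons. Unc5d overlapped, with 112 and 138 CPM against 113 and 161 CPM, and Eomes had 0 UMIs in both classes because the gates required it. Slc17a6 was 31.1 and 32.9 CPM against 15.4 and 19.0 CPM. The part of these genes in the Neurod1 and Insm1 differences was not tested, and both gates capped the sum of Unc5d and Sema3c. Of the layer 5 markers held back, Crym was higher in Fezf2+ Hs3st4- neurons (187 and 212 CPM against 156 and 134 CPM) and Ldb2 lower (334 and 426 CPM against 542 and 539 CPM). Of the listed genes, Tcf12, Bhlhe22 and Rnd2 were called higher in Fezf2+ Hs3st4- neurons, by 1.25 ± 0.16, 1.09 ± 0.18 and 1.93 ± 0.26 (adjusted p = 0.00069, 0.0031 and 0.00097).

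Eminence progenitors, gated on Dlx1, Dlx2, Gsx2 and Nkx2-1 together with proliferation genes, were compared with cycling radial glia of the cortex. Their gate did not require radial glia markers. The 4 markers of the radial glia gate summed to 488 to 531 CPM in eminence progenitors and to 1501 to 1572 CPM in cycling radial glia. In cycling Eomes progenitors they summed to 428 to 596 CPM. Stage and region cannot be told apart in this comparison. Of 6 genes tested, 2 were called higher and 2 lower. Of 11544 genes, 33.8% were called, 16.6% higher and 17.2% lower. Insm1 was 142 and 166 CPM in eminence progenitors against 63.2 and 74.0 CPM, a log2 difference of 1.21 ± 0.14 (adjusted p = 0.00013). Btg2 was 90.3 and 128 CPM against 70.0 and 58.2 CPM, a log2 difference of 0.81 ± 0.19 (adjusted p = 0.0085). The libraries did not overlap for either gene, and the Btg2 difference was 0.37 without WT replicate 6 and 1.13 without WT replicate 1.

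Neurog2 was 2.34 and 4.69 CPM in eminence progenitors against 22.1 and 36.3 CPM and fell by 3.03 ± 0.38 on the log2 scale (adjusted p = 0.00023). Neurod1 was 2.92 and 0.670 CPM against 5.33 and 9.91 CPM (log2 difference -1.97 ± 0.62, adjusted p = 0.033), and this call rested on 12 and 22 UMIs. With DESeq2 it was not called (adjusted p = 0.14), and it was -0.82 without WT replicate 6 and -3.51 without WT replicate 1. In cycling radial glia, Neurod1 overlapped endothelial (14.4 and 5.92 CPM) and erythroid cells (13.5 and 7.10 CPM) and was above microglia in each library. Neurog2 there overlapped erythroid cells (31.0 and 10.1 CPM) and was above microglia and endothelial cells in each library. Eminence progenitors were below all of these classes for both genes. Neurod2 and Neurod6 differed by 0.16 ± 0.30 and 0.00035 ± 0.24 (adjusted p = 0.73 and 0.999), and both classes were below microglia, endothelial and erythroid cells. Eminence progenitors held 29.8 ± 7.06 CPM of Neurod6, against 131 CPM in erythroid cells.

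Genes around the proneural factors also differed in the eminence. Olig2, a bHLH gene of ventral progenitors, was higher by 2.09 ± 0.40 on the log2 scale (adjusted p = 0.0028). Both gates allowed at most 2 UMIs per cell of Pdgfra, Olig1 and Olig2 together, so its levels were limited by the gates. Of the 9 proneural targets, 7 were called higher and 0 lower, among them the Notch ligand gene Dll3 (4.47 ± 0.45), Gadd45g (2.98 ± 0.19), Elavl4 (2.79 ± 0.15) and Mfng (2.66 ± 0.21). Of the 11 partners and opponents, 3 were called higher and 7 lower, among them Hes5, Id1, Id3 and Hes1, with log2 differences of -2.66, -3.12, -2.50 and -3.62. Kdm1a, Rcor2 and Hdac2 of the Insm1 list were called higher by 0.79, 1.94 and 0.46. Several of these differences are not particular to the eminence. Gadd45g, Elavl4, Mfng, Kdm1a, Rcor2 and Hdac2 were also called higher in Eomes progenitors than in radial glia, and Hes5, Id1 and Id3 lower. Olig2 went the other way in that comparison and was not called (log2 difference -1.35 ± 0.52, adjusted p = 0.083).

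The last comparison split Eomes progenitors by proliferation genes. Of the 7 genes, only Insm1 was called, higher in cycling cells by 0.72 ± 0.14 on the log2 scale (adjusted p = 0.0084). Of 9878 genes, 13.8% were called, 9.35% higher and 4.48% lower. DESeq2 put the same difference at 0.71 (adjusted p = 0.060). Neurog2 differed by -0.51 ± 0.16 (adjusted p = 0.062), Neurod1 by -0.61 ± 0.25 (adjusted p = 0.15), Neurod2 by -0.54 ± 0.20 (adjusted p = 0.11) and Btg2 by -0.25 ± 0.14 (adjusted p = 0.28). Neurod6 differed by 0.18 ± 0.15 (adjusted p = 0.49) and Neurog1, on 25 and 19 UMIs, by 0.74 ± 0.64 (adjusted p = 0.50). Neurog2, Neurod1 and Neurod2 had unadjusted p-values of 0.0094, 0.035 and 0.023, and each was called lower in cycling cells under at least 1 alternative. Cdkn1c, which arrests the cycle, fell by 1.91 ± 0.30 (adjusted p = 0.0022), Gadd45g fell by 0.85 ± 0.16 (adjusted p = 0.0065) and Nhlh1, a bHLH gene of early neurons, fell by 3.1 ± 0.56 (adjusted p = 0.0049) in cycling cells. Of the immediate early and stress genes, 3 were tested and Hspa1a was lower in cycling cells (log2 difference -4.37 ± 0.82, adjusted p = 0.0064).

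**Figure D4:**
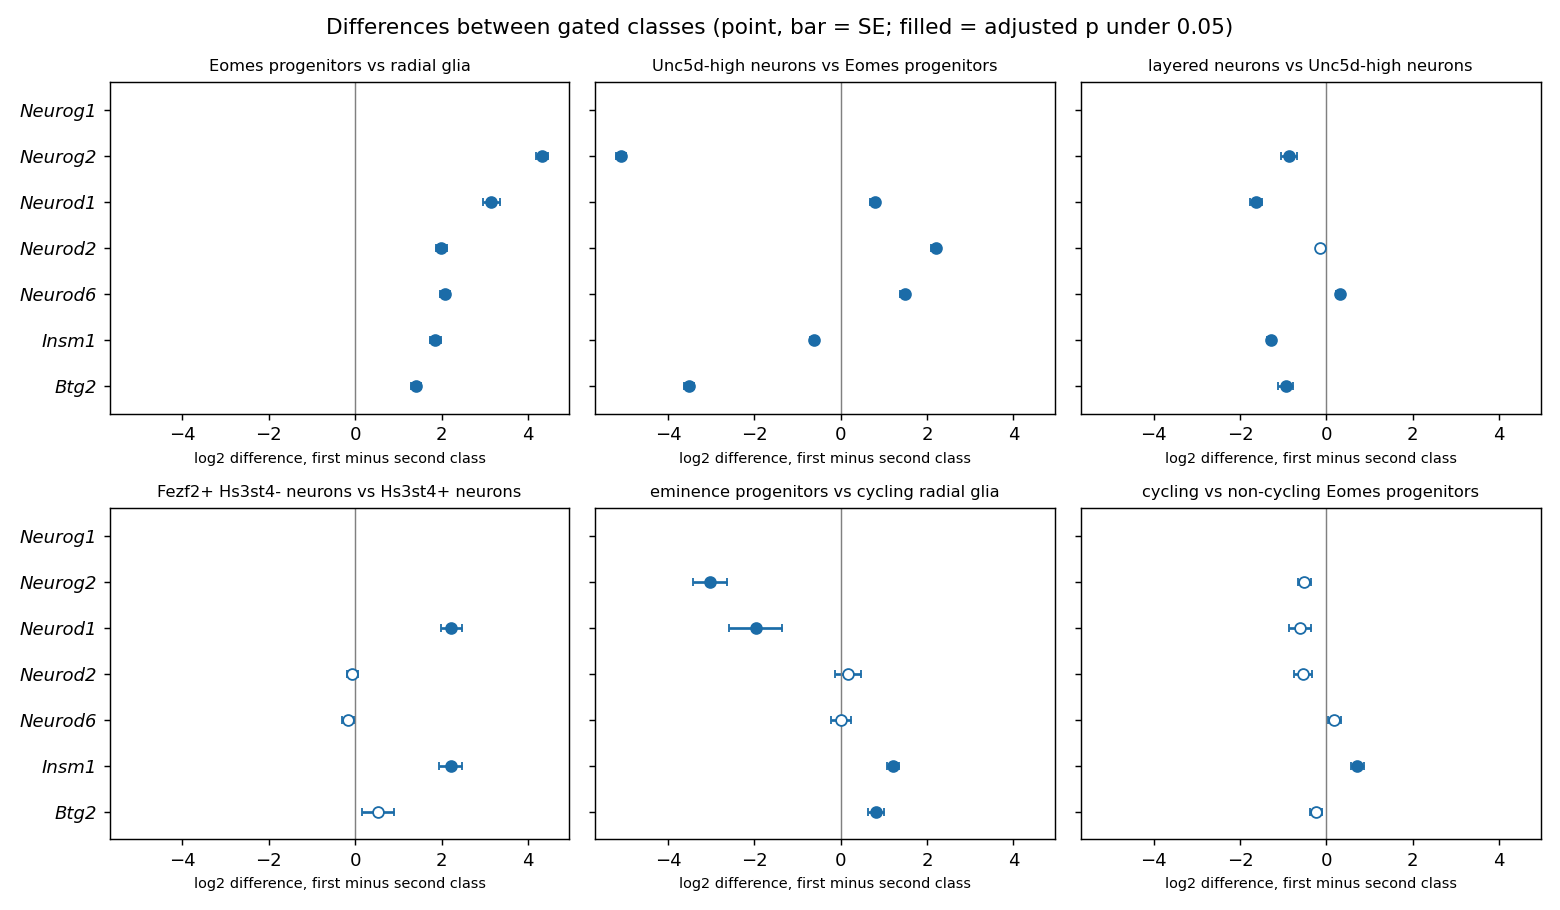
Log2 difference of each gene between the classes named above each panel (first minus second, edgeR), with the SE as a bar, and filled points where the adjusted p is under 0.05. Neurog1 is left out because a class in most comparisons holds few or no UMIs of it, and genes not tested have no point. Neurog2 lies at 4.34 in the first panel and at -5.08 in the second, while Neurod2 is positive in both.

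The genes whose pattern was most like each member were sought over 20 points (10 lineage and eminence classes in 2 libraries) among 7380 genes with a mean of at least 20 CPM. The measure was Pearson's r of log2(CPM + 1), and the points share libraries. Neurod2 and Neurod6 were each other's nearest gene (r = 0.98), and Zbtb18 (r = 0.98 and 0.96) and Rabgap1l (r = 0.97 and 0.96) were the next for both. Nearest to Neurog2 were Glrx2 (r = 0.94), Megf11 (r = 0.93) and Eomes (r = 0.91), which itself served as a gate. Nearest to Neurod1 were 2600014E21Rik (r = 0.94), Galnt17 (r = 0.93) and Focad (r = 0.93). Btg2 was closest to Chd7 (r = 0.98), Rhbdl3 (r = 0.96) and Lima1 (r = 0.96). Insm1 had no gene over r = 0.90, with Top1 (r = 0.89), Eif3d (r = 0.88) and Syne2 (r = 0.88) nearest, and Neurog1 was closest to Ube2g2 (r = 0.82), Gas2 (r = 0.76) and Azi2 (r = 0.76).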

How the data were processed

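Reads had been aligned to mm10 by the authors with Cell Ranger 7.0.0 (10x 3′ chemistry, version 3.1), per the labels, and what they deposited are raw counts of UMIs in each cell. Whether intronic reads were counted is not given in the sources used here. The members and gene lists were chosen with earlier results of these data known, and gate thresholds were set after marker values, but no member's, were seen. Doublets were scored (920 and 857 cells) and kept. UMIs were summed by class within each library, which gives 2 sums per class, and tested with edgeR 4.0.16 in R 4.3.3 (TMM, filterByExpr, two-sided quasi-likelihood test, compared classes only, Benjamini-Hochberg adjustment). The script was tested on simulated data. SEs were derived from the log2 difference and the F statistic. The classes compared share their libraries, and deviations of same-library sums from class means correlated across genes with r of 0.15 to 0.36. Alternatives were DESeq2 1.42.0, no TMM, no filter, a replicate block, all classes in 1 fit, a single library, doublets left out, a stricter cell filter, raised gates and thinned cells. Named genes were the 7 members, up to 4 genes per list with the smallest adjusted p, and the 3 nearest by correlation. Sema3c, Unc5d, Slc17a6, Crym and Ldb2 are gate or held-back markers, named after their values were seen. Intervals and floors cover counting error only. Some markers and list genes that entered gates or counts are not reported here by name.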

Additional observations from a re-analysis of the deposited data

How the results depend on the processing

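Of 330 member differences recomputed with both libraries, 310 kept their direction and their side of the threshold. Between eminence progenitors and cycling radial glia, 4 members were called, and 1 when cells were thinned to 2000 UMIs, where low counts left 3 of the 7 testable. Between cycling and non-cycling Eomes progenitors, 1 member was called, against 0 with DESeq2 (2 at an unadjusted p under 0.05), 2 with doublets left out, 2 with raised gate minimums, 2 without TMM scaling, 3 with the stricter cell filter and 4 without the filter on low counts. Differences that were not called changed sign as follows. Neurod6 between eminence progenitors and cycling radial glia was -0.093 in thinned cells, -0.016 with the library as a replicate block, -0.052 without TMM scaling and -0.15 with the stricter cell filter, under which Neurod2 was -0.020. Neurod6 between cycling and non-cycling Eomes progenitors was -0.32 in thinned cells. Neurog2 between layered and Unc5d-high neurons was not called in thinned cells (adjusted p = 0.066), nor was Btg2 between eminence progenitors and cycling radial glia (adjusted p = 0.093). The replicate block changed 1 call, that of Neurod2 between layered and Unc5d-high neurons. The cause of these changes was not tested. Of 76 differences in a single library, 37 lay within 1 SE of the value from both libraries and 39 did not, and no difference that was called changed sign.

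Over all genes, the calls in the 6 comparisons were 3307, 5707, 4204, 988, 3897 and 1367 in the order of the report. DESeq2 called 1810, 3697, 2369, 426, 2171 and 653, thinned cells gave 1569, 2992, 2038, 623, 1833 and 468, and a fit of all classes gave 2572 in the third.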
